A study of Mus musculus with 36 samples.

Results

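The transcripts examined were those whose response to Core Circadian Modulator (CCM) changed when lipopolysaccharide (LPS) was present. CCM is a small molecule ligand of the clock protein BMAL1. The cells were bone marrow-derived macrophages (BMDMs) labelled as Bmal1 knockout (KO). The measure was the interaction of LPS and CCM, that is, the CCM effect under LPS (LPS+CCM minus LPS) minus the CCM effect without LPS (CCM minus vehicle), on the log2 scale. It used the 24 KO libraries of the 36 in the study. These fall into 4 groups of 6, with replicates numbered 1 to 6 in each group, and the replicate number was fitted as a block as the definition of this comparison asks. The KO cells came from female mice with floxed Bmal1 alleles and Cre recombinase under the myeloid LysM promoter, on a C57BL/6 background, so the deletion is limited to cells in which that promoter was active and all 4 groups carry it. Marrow was cultured with MCSF for 7 days, and the cells were then treated for 6 h with DMSO as vehicle, CCM at 100 µM, LPS at 100 nM or both agents (LPS+CCM). The WT cells came from flox/flox littermates without Cre, with 3 replicates of each of the same treatments. Poly(A) RNA was sequenced and the authors deposited read counts per gene.

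LPS, from the outer membrane of Gram-negative bacteria, is sensed by Toll-like receptor 4, which signals through MyD88 and IRAK kinases to NF-kB and through TRIF to interferon-beta. Interferon-beta acts back on the cell and raises antiviral genes, while many genes of metabolism and cell division are turned down. BMAL1 pairs with CLOCK at E-box motifs to drive the circadian clock. The question the comparison addresses is whether a ligand of BMAL1 acts differently in resting and in LPS-stimulated cells labelled as knockout for its named target.

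Counted read pairs were 13469262 to 27744012 per KO library and 18043196 to 28288923 per WT library. Arntl, the gene that encodes BMAL1, was at 2.13 to 10.7 CPM (counts scaled to a common library size by TMM factors) in the 24 KO libraries, with a median of 7.29, and at 7.28 to 12.9 CPM in the 12 WT libraries, with a median of 9.54. The ranges overlap, with 12 KO libraries inside the WT range. Within each KO treatment group the lowest Arntl level was that of replicate 6, at 2.13 to 5.01 CPM. Libraries of KO replicates 1 to 5 lay at 4.53 to 10.7 CPM. The value of 4.53 CPM came from replicate 5 treated with both agents, and the next lowest among these libraries was 6.39 CPM. These counts cover the whole gene and cannot show the loss of single exons, so they do not check the genotype labels. The paper reports that CCM changed a much smaller set of genes in KO than in WT macrophages. For the limited effects left in KO, it proposes incompletely penetrant deletion or some limited off-target action as possible sources. Neither was tested here. The interaction of Arntl was -0.19 ± 0.21 and was not called (edgeR adjusted p = 0.703). The 10 macrophage markers summed to 12517 to 21254 CPM in the KO libraries, 55.7% of it from Lyz2. KO replicate 6 stood apart from the others in all 4 groups: the median absolute deviation of its genes from the group means was 0.618 on the log2 scale, against 0.170 to 0.219 for replicates 1 to 5. The summed level of 10 neutrophil markers was 1148 to 1232 CPM in replicate 6 and 416 to 1101 CPM in the rest, that of 8 T and NK cell markers 5.54 to 11 against 1.54 to 4.83 CPM, and that of 7 erythroid markers 5.06 to 11.8 against 1.56 to 7.35 CPM. The sum of 6 mast cell and basophil markers was 23.4 to 35.2 against 12.7 to 34.6 CPM. Other sums in replicate 6 lay inside the range of the rest. That of 6 fibroblast markers, 44.4% of it from Col1a1, was 356 to 674 against 298 to 1672 CPM. That of 7 B cell markers was 107 to 204 against 30.7 to 249 CPM. Values without replicate 6 are given for genes described singly that lost their call without it, and the part of these markers in the results was not tested.

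Of 14588 genes tested in the KO libraries, 81 (0.555%) were called for the interaction at an adjusted p of at most 0.05 (edgeR quasi-likelihood test, Benjamini-Hochberg over all genes tested). A negative interaction means that LPS+CCM cells lay lower than the LPS effect and the CCM effect add up to, and a positive one means that they lay higher. The interaction was negative for 54 genes (0.37% of those tested) and positive for 27 (0.185%). Their sizes were moderate, with a median of -0.66 and a range of -1.46 to -0.39 on the log2 scale among the negative genes and a median of 0.67 and a range of 0.46 to 1.20 among the positive ones, and 8 reached 1 in absolute size. The interaction computed within each replicate had the sign of the fit in 6 of 6 replicates for 53 of the 54 negative genes and for each of the 27 positive ones. The exception was Cytip, with the sign of the fit in 5 of 6. These genes were chosen by a test on the same replicates, so the shared signs follow largely from that choice and are no further support. The same holds for the counts of replicates given below for single called genes. Such counts set libraries of the same number side by side, and the sources used here do not state that these share a mouse. Across all genes tested the median interaction was 0.04, and 2002 genes had an unadjusted p under 0.05, of which 828 were negative and 1174 positive.

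The count and the balance of its signs rest on the block, the replicates, the scaling and the tool. Without the replicate block 1 gene was called, Glul, and leaving out replicates 1, 2, 3, 4, 5 and 6 in turn left 7, 5, 10, 12, 65 and 53 genes called. Of the 81 genes, 4 were called in each of these 6 fits, 8 in at least 4 of them and 18 in none. Most genes described below thus lost their call without at least 1 replicate, also where no such value is given. Without replicate 6, 40 of the 81 genes were called and 41 were not, with adjusted p values of 0.0504 to 0.128 (edgeR). Scaling by total counts alone gave 40 calls, 9 negative and 31 positive, with 30 of the 81 among them. DESeq2 called 326 genes (3.24% of those it adjusted), voom with quality weights 1344 (9.21%) and the fit of all 36 libraries 258 (1.64%). Each of the 81 genes had the same sign in all 14 alternative fits. Those fits reuse the KO libraries that gave the calls, so they are not independent of them.

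**Figure D1:**
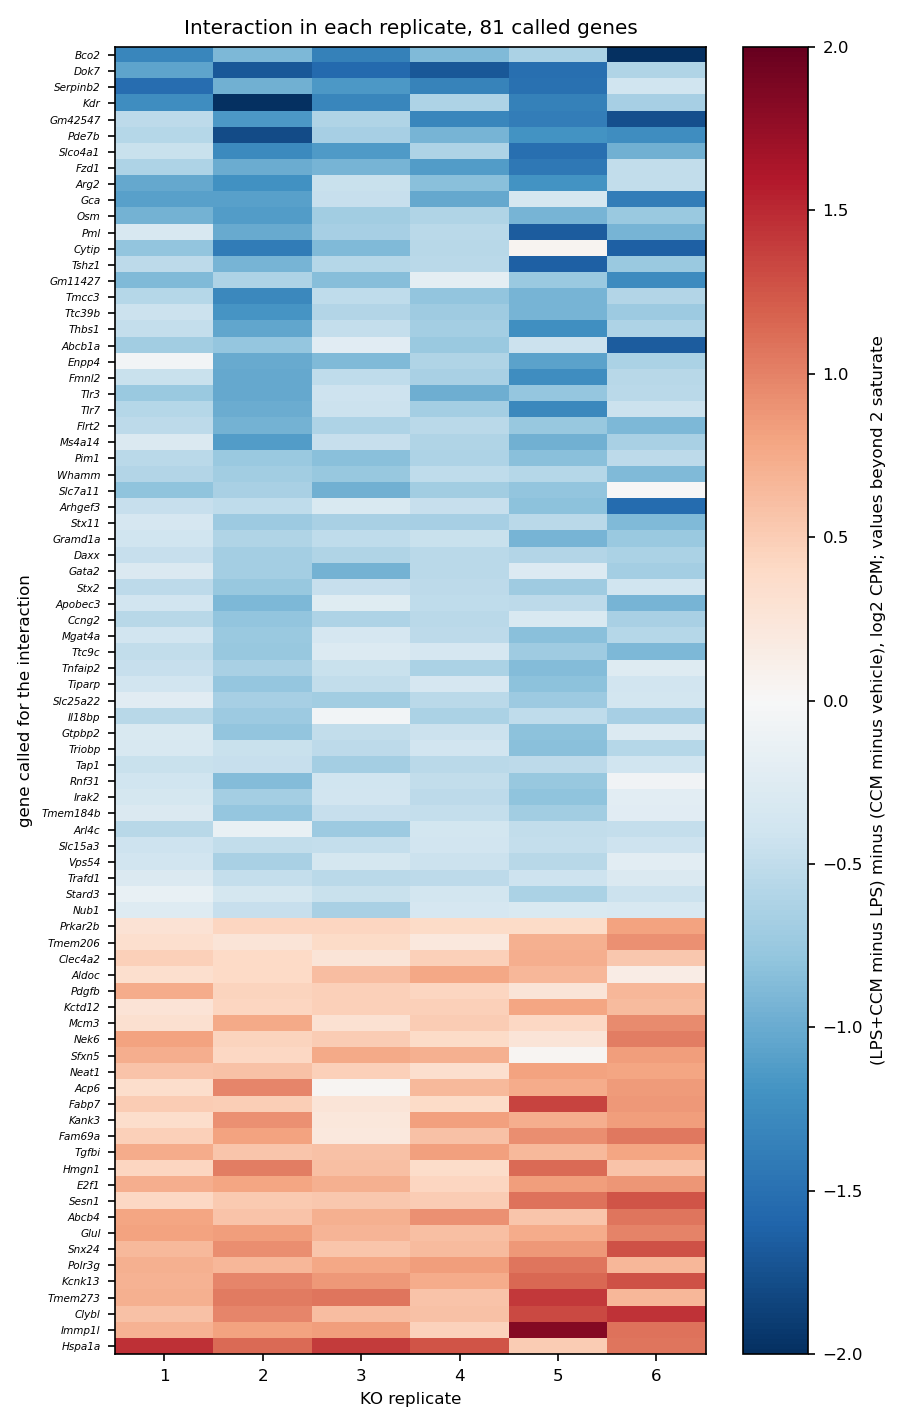
Interaction within each KO replicate, that is, (LPS+CCM minus LPS) minus (CCM minus vehicle) in log2 CPM, for the 81 called genes ordered by their fitted value. Blue is negative and red positive. The colour of a row is the same in nearly every column, with the sign of the fit in 6 of 6 replicates for 53 of 54 negative and 27 of 27 positive genes. The genes were chosen by a test on these same replicates.

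For most of these genes the CCM effect passed the test in stimulated cells and did not in resting ones. The median CCM effect over the 54 negative genes was -0.51 under LPS and 0.10 without it, and over the 27 positive genes it was 0.60 and -0.08. The CCM effect was called under LPS alone for 72 of the 81 genes (49 negative, 23 positive), without LPS alone for 4, in both states for 2 and in neither for 3. Over all genes tested, the CCM effect was called for 1735 genes under LPS (11.9%) and for 88 without LPS (0.603%). The CCM effects under LPS and without it had opposite signs for 42 of the 54 negative genes and 21 of the 27 positive ones, though few effects without LPS passed the test. The 81 genes were chosen by a test on the difference of these 2 effects. Opposite signs and a call under LPS alone thus follow largely from that choice and are no further support. The 6 LPS libraries and the 6 LPS+CCM libraries did not overlap for 13 negative and 8 positive genes, while 1.25% of all genes tested did not overlap.

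**Figure D2:**
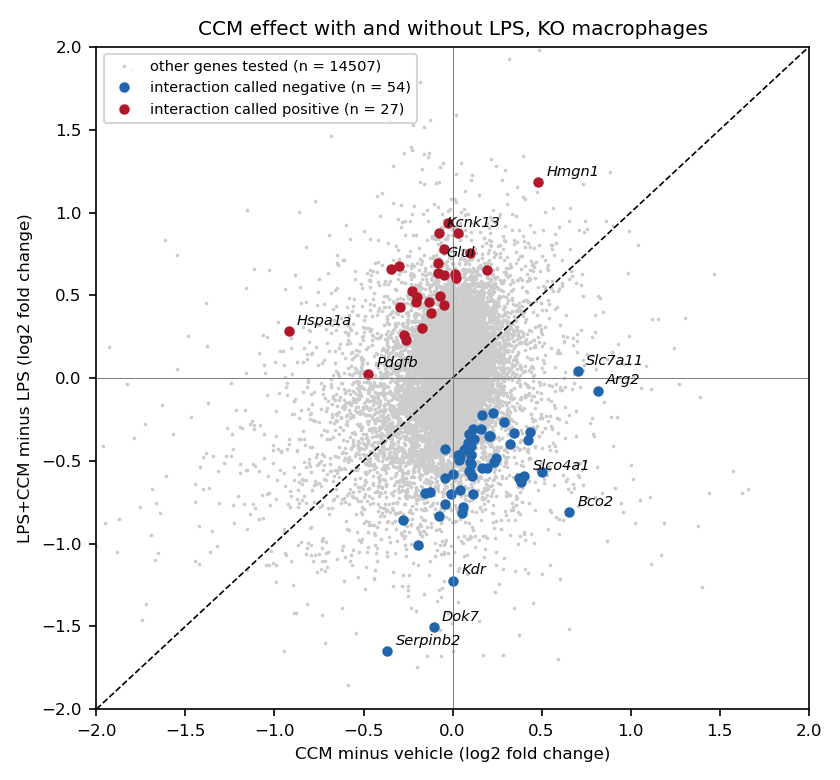
CCM effect in resting KO cells (x axis, CCM minus vehicle, log2) against the CCM effect in LPS-stimulated KO cells (y axis, LPS+CCM minus LPS, log2) for each gene tested, with 23 genes outside the axes. The dashed line marks equal effects, so the vertical distance from it is the interaction; most of the 54 blue and 27 red points lie near 0 on the x axis, and Slc7a11, Arg2, Pdgfb and Hspa1a lie near 0 on the y axis.

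Among genes with a positive interaction, Glul had the smallest p of all genes. It encodes glutamine synthetase, which makes glutamine from glutamate and ammonia, and lies at chr1:153899944-153909723 (GRCm38). Its lowest, median and highest levels over 6 libraries were 218, 231 and 247 CPM with vehicle, 197, 222 and 234 CPM with CCM, 56.5, 61.7 and 74.5 CPM with LPS and 84.0, 105 and 115 CPM with LPS+CCM. The LPS libraries all lay under the vehicle libraries, the LPS+CCM libraries all lay above the LPS libraries, and CCM and vehicle libraries overlapped. The interaction of Glul was 0.78 ± 0.09 (SE, edgeR adjusted p = 0.000253), from a CCM effect of 0.70 under LPS (edgeR adjusted p = 1.25e-06) and -0.08 without it. It was called in each of the 6 fits that leave out a replicate. Its annotation overlaps Mir8114 and Teddm2, and whether reads were counted by strand is not given in the sources used here.

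Kcnk13, which encodes a potassium channel that carries background current, had a like pattern. Its levels, again as lowest, median and highest, were 41.6, 56.5 and 65.5 CPM with vehicle, 33.3, 55.4 and 61.6 CPM with CCM, 10.9, 18.4 and 19.7 CPM with LPS and 21.2, 33.0 and 41.3 CPM with LPS+CCM. LPS and LPS+CCM libraries did not overlap. The interaction was 0.95 ± 0.12 (SE, edgeR adjusted p = 0.00063). Tgfbi, a secreted matrix protein induced by TGF-beta, differed in that LPS raised it. Tgfbi was at 279, 326 and 360.3 CPM with vehicle, 238, 280.5 and 334 CPM with CCM, 487, 642 and 706 CPM with LPS and 621, 916 and 1024 CPM with LPS+CCM. CCM under LPS lifted it further, with 1 LPS+CCM library, that of replicate 3, inside the range of the LPS libraries. Its interaction was 0.69 ± 0.10 (SE, edgeR adjusted p = 0.00188). Kcnk13 and Tgfbi were also called in each of the 6 fits that leave out a replicate.

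**Figure D3:**
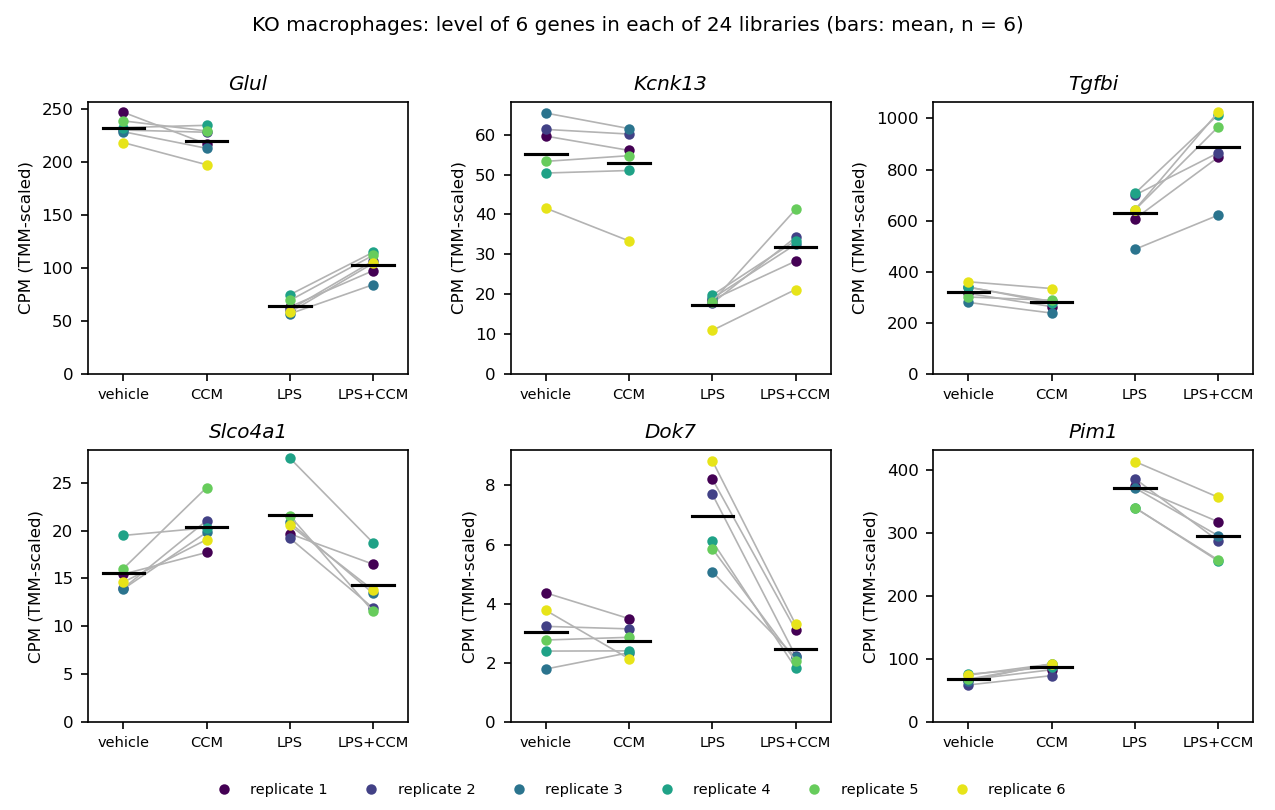
Level (y axis, TMM-scaled CPM, from 0) of the 6 genes with the smallest p for the interaction in each of the 24 KO libraries by treatment; points are libraries coloured by replicate, grey lines join the same replicate number and black bars are means over 6. CCM moves the points to the right of each panel (LPS to LPS+CCM) more than those to the left for Glul, Kcnk13, Tgfbi and Dok7, and in opposite directions for Slco4a1 and Pim1.

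The called members of the list of cell cycle and DNA replication genes, both positive, were E2f1, a transcription factor for genes of DNA synthesis, and Mcm3, a subunit of the replicative helicase. E2f1 was at 35.5, 38.4 and 65.7 CPM with vehicle, 34.0, 35.3 and 67.2 CPM with CCM, 17.4, 21.9 and 25.5 CPM with LPS and 27.7, 33.8 and 47.9 CPM with LPS+CCM. The LPS and LPS+CCM libraries of E2f1 did not overlap, and its interaction was 0.72 ± 0.12 (SE, edgeR adjusted p = 0.0114). Mcm3 was at 56.4, 62.7 and 75.6 CPM with vehicle, 48.0, 51.0 and 61.4 CPM with CCM, 21.9, 23.0 and 27.4 CPM with LPS and 24.1, 29.8 and 35.2 CPM with LPS+CCM. LPS lowered it and CCM moved it up under LPS (0.26, edgeR adjusted p = 0.0265) while the value without LPS was -0.27 and did not pass the test. The interaction of Mcm3 was 0.54 ± 0.10 (SE, edgeR adjusted p = 0.0244). Sesn1, a p53 target that restrains mTORC1, was at 76.1, 86.6 and 101 CPM with vehicle, 53.9, 74.3 and 86.2 CPM with CCM, 6.60, 10.3 and 12.3 CPM with LPS and 11.3, 13.0 and 16.5 CPM with LPS+CCM. It fell steeply with LPS in both the presence and absence of CCM, and its interaction was 0.72 ± 0.13 (SE, edgeR adjusted p = 0.0155), and without replicate 6 it was 0.63 (edgeR adjusted p = 0.0504).

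Hmgn1, a nucleosome-binding protein, was raised by CCM in both states and more so under LPS. Its levels were 62.7, 69.1 and 137 CPM with vehicle, 88.1, 98.2 and 190.2 CPM with CCM, 35.2, 40.2 and 77.2 CPM with LPS and 76.8, 90.2 and 159.5 CPM with LPS+CCM. The CCM effect was 1.18 under LPS (edgeR adjusted p = 4.45e-07) and 0.48 without it (edgeR adjusted p = 0.0166), and the interaction was 0.70 ± 0.13 (SE, edgeR adjusted p = 0.0244), and without replicate 6 it was 0.73 (edgeR adjusted p = 0.0504). Replicate 6 was the highest in each of the 4 groups, and its LPS value lay inside the range of the LPS+CCM libraries. The LPS+CCM value lay above the LPS value of the same number in 6 of 6 replicates. Tmem273, a membrane protein, had an interaction of 0.96 ± 0.20 (SE, edgeR adjusted p = 0.0322) and was at 33.5, 36.3 and 62.8 CPM with vehicle, 31.6, 35.5 and 62.8 CPM with CCM, 4.43, 5.24 and 6.78 CPM with LPS and 6.66, 10.8 and 14.2 CPM with LPS+CCM. The ranges of the LPS and LPS+CCM libraries overlapped, and the LPS+CCM value lay above the LPS value of the same number in 6 of 6 replicates. The other positive genes of the 15 with the most positive values were Immp1l and Clybl, which encode mitochondrial proteins, Polr3g, a subunit of RNA polymerase III, Abcb4, a phospholipid transporter, Snx24, a sorting nexin, Fam69a and Kank3. Their interactions were 1.01, 0.98, 0.84, 0.75, 0.83, 0.67 and 0.66 in that order. Without replicate 6, Immp1l, Clybl, Fam69a and Kank3 had adjusted p values of 0.101, 0.0903, 0.0599 and 0.104 (edgeR). Fam69a overlaps the ribosomal gene Rpl5 and Kank3 overlaps Rps28, so reads there may be shared.

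Hspa1a, the stress-inducible HSP70 chaperone, had the most positive interaction of the called genes and was one of the few whose call came from resting cells. It was at 1.29, 1.83 and 2.40 CPM with vehicle, 0.663, 0.996 and 1.08 CPM with CCM, 6.92, 10.4 and 12.3 CPM with LPS and 9.62, 11.6 and 16.9 CPM with LPS+CCM. Vehicle and CCM libraries did not overlap, with CCM lower by 0.92 on the log2 scale (edgeR adjusted p = 0.0424), whereas under LPS the CCM effect was 0.28 and did not pass the test. The interaction was 1.20 ± 0.26 (SE, edgeR adjusted p = 0.0403). Counts in resting cells were low, and reads of Hspa1a and of its near-identical copy Hspa1b cannot be told apart with certainty; Hspa1b had an interaction of 0.88 ± 0.29 (edgeR adjusted p = 0.185). Pdgfb, a platelet-derived growth factor chain named here after its values were seen, showed the same kind of pattern. It was at 78.1, 85.3 and 95.4 CPM with vehicle, 57.1, 60.4 and 69.3 CPM with CCM, 49.9, 63.3 and 73.3 CPM with LPS and 47.5, 66.9 and 79.7 CPM with LPS+CCM. CCM and vehicle libraries did not overlap and LPS and LPS+CCM libraries did, with an interaction of 0.50 ± 0.11 (SE, edgeR adjusted p = 0.0478), and without replicate 6 it was 0.46 (edgeR adjusted p = 0.0504).

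Among genes with a negative interaction, Slco4a1 had the smallest p and Pim1 responded to CCM in opposite directions in the 2 states. Slco4a1, an organic anion transporter, was at 13.9, 15 and 19.5 CPM with vehicle, 17.7, 20.1 and 24.5 CPM with CCM, 19.2, 20.7 and 27.6 CPM with LPS and 11.6, 13.6 and 18.7 CPM with LPS+CCM. The LPS+CCM libraries all lay under the LPS libraries. Without LPS the CCM value was 0.40 (edgeR adjusted p = 0.0702), and the interaction was -0.99 ± 0.14 (SE, edgeR adjusted p = 0.00188). Slco4a1 was called in each of the 6 fits that leave out a replicate. Pim1, a serine/threonine kinase induced by cytokines and named here after its values were seen, was raised by CCM in resting cells (0.35, edgeR adjusted p = 0.0342) and lowered by CCM under LPS (-0.33, edgeR adjusted p = 0.00662). It was the 1 gene of the 81 with called CCM effects of opposite sign. Pim1 was at 58.6, 67.3 and 75.6 CPM with vehicle, 73.4, 89.3 and 92.6 CPM with CCM, 339.6, 372 and 413 CPM with LPS and 255, 291 and 356 CPM with LPS+CCM, with LPS and LPS+CCM libraries that overlapped, and its interaction was -0.68 ± 0.11 (SE, edgeR adjusted p = 0.00571).

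Dok7, an adaptor protein known from the neuromuscular junction, was raised by LPS without CCM, and LPS+CCM cells held resting levels. It was at 1.79, 3.0 and 4.36 CPM with vehicle, 2.13, 2.63 and 3.49 CPM with CCM, 5.08, 6.91 and 8.83 CPM with LPS and 1.83, 2.21 and 3.30 CPM with LPS+CCM. LPS+CCM libraries were in the range of the resting libraries and did not overlap with the LPS libraries. The interaction of Dok7 was -1.40 ± 0.21 (SE, edgeR adjusted p = 0.00276), and without replicate 2 its adjusted p was 0.0619 (edgeR). Serpinb2, which encodes plasminogen activator inhibitor 2, was induced strongly by LPS and was at 8.19, 17.2 and 47.1 CPM with vehicle, 2.94, 14.3 and 41.3 CPM with CCM, 156, 304 and 435 CPM with LPS and 43.5, 95.6 and 151 CPM with LPS+CCM. The LPS and LPS+CCM libraries did not overlap, and the interaction was -1.28 ± 0.27 (SE, edgeR adjusted p = 0.0324). Gca, a calcium-binding protein of myeloid cells, and Fzd1, a Wnt receptor, followed the same course with interactions of -0.87 and -0.98, and without replicate 6 the adjusted p of Gca was 0.0775 (edgeR). Fzd1 was at 7.63, 15.4 and 17.0 CPM with vehicle, 5.37, 21.1 and 23.0 CPM with CCM, 47.3, 88.6 and 106 CPM with LPS and 23.9, 64.2 and 73.1 CPM with LPS+CCM. Replicate 6 held the lowest value in each group, and the LPS and LPS+CCM libraries overlapped. The LPS+CCM value lay under the LPS value of the same number in 6 of 6 replicates.

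Osm, oncostatin M, a cytokine of the interleukin-6 family, was at 12.7, 23.2 and 31.3 CPM with vehicle, 16.6, 23.4 and 30.1 CPM with CCM, 12.8, 16.0 and 19.6 CPM with LPS and 7.65, 9.59 and 11.5 CPM with LPS+CCM. The LPS+CCM libraries all lay under the LPS libraries while vehicle and CCM libraries overlapped widely. Its interaction was -0.84 ± 0.16 (SE, edgeR adjusted p = 0.0244). Cytip, a partner of cytohesins in leukocyte adhesion, was lowered by LPS and, under LPS, lowered further by CCM. It was at 38.9, 58.7 and 77.4 CPM with vehicle, 30.2, 53.7 and 66.2 CPM with CCM, 7.98, 10.8 and 12.7 CPM with LPS and 1.91, 5.57 and 7.59 CPM with LPS+CCM, with an interaction of -0.82 ± 0.19 (SE, edgeR adjusted p = 0.0488), and without replicate 6 it was -0.72 (edgeR adjusted p = 0.0759). Replicate 5 had a value of 0.06, opposite to the rest. Pml, which organizes nuclear bodies, was at 18.1, 26.7 and 28.2 CPM with vehicle, 20.8, 28.5 and 30.1 CPM with CCM, 132, 171 and 191 CPM with LPS and 56.7, 113 and 148 CPM with LPS+CCM. LPS and LPS+CCM libraries overlapped, and the interaction was -0.82 ± 0.19 (SE, edgeR adjusted p = 0.05), and without replicate 6 it was -0.80 (edgeR adjusted p = 0.119). Pde7b, a phosphodiesterase that breaks down cAMP, and Tshz1, a zinc finger protein, had interactions of -1.01 and -0.80, the latter with an adjusted p of 0.091 without replicate 6 (edgeR). Bco2, a carotenoid-cleaving enzyme, had the most negative value, -1.46 ± 0.33 (SE, edgeR adjusted p = 0.0478), at levels under 7 CPM. This rank rests on replicate 6: without replicate 6 the value of Bco2 was -1.10 (edgeR adjusted p = 0.0992) and that of Dok7 was -1.53, and the call of Bco2 was lost in each of the 6 fits that leave out a replicate. Bco2 overlaps Il18, whose interaction was -0.52 ± 0.16 (edgeR adjusted p = 0.167), so the reads may be shared. Gm42547 and Gm11427, with predicted or pseudogene names, are counted among the negative genes and are uncertain.

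Kdr, a receptor for vascular endothelial growth factor, was at 5.30, 6.05 and 8.31 CPM with vehicle, 4.56, 6.52 and 9.71 CPM with CCM, 7.98, 17.8 and 27.9 CPM with LPS and 4.29, 6.82 and 14.6 CPM with LPS+CCM. The ranges of the LPS and LPS+CCM libraries overlapped, and the LPS value lay above the LPS+CCM value of the same number in 6 of 6 replicates. Its interaction was -1.23 ± 0.26 (SE, edgeR adjusted p = 0.0377). The call of Kdr was lost in each of the 6 fits that leave out a replicate, and without replicate 6 the interaction was -1.31 (edgeR adjusted p = 0.0504). Kdr is a defining marker of endothelial cells: the 5 endothelial markers summed to 23.9 to 37.2 CPM with LPS and to 8.55 to 27.2 CPM with LPS+CCM, 42.8% of it from Kdr over all libraries. Gata2, a transcription factor of mast cells and progenitors named after its values were seen, had an interaction of -0.57 ± 0.12 (SE, edgeR adjusted p = 0.0405), beside mast cell and basophil markers that summed to 23.2 to 35.2 CPM with LPS and 12.7 to 23.4 CPM with LPS+CCM, 42.8% of it from Gata2. Replicate 6 held the highest of these mast cell and basophil sums both with LPS and with LPS+CCM. The interaction of Gata2 without replicate 6 was -0.55 (edgeR adjusted p = 0.0702). The sums include Kdr and Gata2 themselves, so they do not show how the other markers changed. None of these markers was at 0 in all 24 libraries, and the part of such cells in the 2 values was not tested. In bulk RNA, fewer cells of a type and less RNA per cell cannot be told apart.

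Further negative genes are named here after their values were seen. Tlr3, the Toll-like receptor for double-stranded RNA, was at 6.10, 9.81 and 12 CPM with vehicle, 6.70, 9.59 and 10.2 CPM with CCM, 63.1, 94.1 and 103 CPM with LPS and 43.0, 48.7 and 66.5 CPM with LPS+CCM. CCM lowered Tlr3 under LPS in 6 of 6 replicates, with 1 LPS library, that of replicate 6, inside the range of the LPS+CCM libraries, and its interaction was -0.72 ± 0.16 (SE, edgeR adjusted p = 0.0481), and without replicate 6 it was -0.77 (edgeR adjusted p = 0.0504). Tlr7, the receptor for single-stranded RNA, had an interaction of -0.71 ± 0.16 (SE, edgeR adjusted p = 0.0488), and without replicate 6 it was -0.77 (edgeR adjusted p = 0.0644). Apobec3, a cytidine deaminase that restricts retroviruses, had -0.56, Daxx, a histone chaperone and partner of Pml, had -0.58, Trafd1, a regulator of Toll-like receptor signalling, had -0.42, and Rnf31, a subunit of the linear ubiquitin ligase, had -0.49. Without replicate 6 the adjusted p of Apobec3 was 0.0788 (edgeR). For Daxx, Apobec3 and Rnf31 the LPS and LPS+CCM libraries did not overlap. Daxx was at 36.9, 39.6 and 44.3 CPM with vehicle, 35.6, 39.5 and 45.5 CPM with CCM, 351, 393 and 458 CPM with LPS and 233, 257 and 302 CPM with LPS+CCM, and vehicle and CCM libraries overlapped.

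Slc7a11 and Arg2 were the negative genes whose CCM effect was called without LPS alone. Slc7a11, a subunit of the cystine/glutamate antiporter and a target of the oxidative stress factor NRF2, was at 21.4, 35.4 and 42.7 CPM with vehicle, 24.3, 59.3 and 72.9 CPM with CCM, 812, 1415 and 1640.5 CPM with LPS and 918, 1420.5 and 1729 CPM with LPS+CCM. CCM raised it in resting cells by 0.70 on the log2 scale (edgeR adjusted p = 0.000379), and once LPS had raised it, CCM added 0.04, which did not pass the test. Its interaction was -0.66 ± 0.12 (SE, edgeR adjusted p = 0.0221). Arg2, the mitochondrial arginase, was at 2.45, 4.09 and 6.06 CPM with vehicle, 3.83, 7.51 and 9.88 CPM with CCM, 6.00, 7.48 and 8.84 CPM with LPS and 5.74, 6.98 and 9.45 CPM with LPS+CCM. The CCM effect on Arg2 was 0.81 in resting cells (edgeR adjusted p = 0.0051) and -0.08 under LPS, with an interaction of -0.89 ± 0.19 (SE, edgeR adjusted p = 0.0377). Arg2 overlaps Vti1b in the annotation.

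The promoters of called genes were read from RefSeq for GRCm38.p6, from 250 bases before to 50 bases after each start. They were available for 46 of the 54 negative and 22 of the 27 positive genes. Promoters on a chromosome that was left out of the search are not counted, among called genes or all genes tested. Those of Glul (smallest p), Serpinb2, Tlr3 and Tmem273 are shown as examples of promoters that hold one of the motifs searched, written 5′ to 3′ on the strand of the gene, with the matching letters in capitals.
Glul promoter, plus strand, chr1:153899679-153899978: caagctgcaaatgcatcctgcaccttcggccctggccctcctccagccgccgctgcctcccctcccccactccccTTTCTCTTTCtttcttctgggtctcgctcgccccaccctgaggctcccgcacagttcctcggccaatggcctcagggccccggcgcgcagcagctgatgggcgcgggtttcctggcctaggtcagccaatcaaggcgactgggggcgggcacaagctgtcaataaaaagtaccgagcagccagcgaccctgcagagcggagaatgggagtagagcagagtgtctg
Serpinb2 promoter, plus strand, chr1:107511173-107511472: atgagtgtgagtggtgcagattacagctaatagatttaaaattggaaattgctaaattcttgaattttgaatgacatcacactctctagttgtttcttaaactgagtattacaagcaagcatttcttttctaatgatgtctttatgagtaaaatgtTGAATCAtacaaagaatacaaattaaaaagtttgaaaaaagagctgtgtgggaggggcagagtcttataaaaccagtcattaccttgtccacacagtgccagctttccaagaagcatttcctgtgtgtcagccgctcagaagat
Tlr3 promoter, minus strand, chr8:45410331-45410630: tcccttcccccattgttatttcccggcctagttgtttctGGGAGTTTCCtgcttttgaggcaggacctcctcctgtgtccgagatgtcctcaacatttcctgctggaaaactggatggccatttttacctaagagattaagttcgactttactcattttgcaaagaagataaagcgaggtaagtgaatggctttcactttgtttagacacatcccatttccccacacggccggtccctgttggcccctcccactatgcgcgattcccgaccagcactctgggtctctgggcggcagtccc
Tmem273 promoter, plus strand, chr14:32785713-32786012: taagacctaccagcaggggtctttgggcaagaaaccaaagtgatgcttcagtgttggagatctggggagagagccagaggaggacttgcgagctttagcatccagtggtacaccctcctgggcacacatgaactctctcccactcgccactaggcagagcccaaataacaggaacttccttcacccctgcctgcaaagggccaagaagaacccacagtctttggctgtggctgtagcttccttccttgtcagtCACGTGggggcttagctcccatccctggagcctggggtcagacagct

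The capitals mark the core of the interferon-stimulated response element (GAAA, any 2 bases, GAAA) on the opposite strand in Glul, the AP-1 motif (TGANTCA) in Serpinb2, the NF-kB motif (GGGA, any base, TTTCC) in Tlr3 and the E-box (CACGTG) that CLOCK and BMAL1 bind in Tmem273. Motifs were searched on both strands, with GGGG for GGGA as a further form of the NF-kB motif and TGACGTCA as the cAMP response element, and none of these letter patterns contains another. An E-box was present for 4.35% of the negative and 9.09% of the positive genes, against 11.6% of 10409 tested genes with a promoter. AP-1 was present for 8.7% and 4.55% against 6.55%, the interferon core for 8.7% and 9.09% against 3.93%, NF-kB for 2.17% and 0% against 1.09% and the cAMP element for 0% and 0% against 3.46%. These shares rest on at most 4 genes per motif and set, and a match is a stretch of letters, not a site that was shown to be bound.

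The genes were sorted by their response to LPS in WT cells, whose libraries have no part in the KO interaction. LPS raised 4701 of 14747 genes in WT (31.9%) and lowered 5153 (34.9%). Of the 54 genes with a negative KO interaction, 49 were among the LPS-raised genes, and of the 27 with a positive one, 22 were among the LPS-lowered genes. The interaction thus lay mostly against the direction of LPS. Over all 4634 LPS-raised genes tested in KO, called or not, the median interaction was -0.06 with 58.8% negative. It was 0.12 over the 5102 LPS-lowered genes with 31.7% negative, and 0.05 over the 4664 genes not called for LPS in WT. The medians by replicate 1 to 6 were -0.05, -0.13, -0.07, -0.10, -0.10 and 0.03 for LPS-raised genes and 0.11, 0.18, 0.05, 0.09, 0.10 and 0.15 for LPS-lowered genes, so that replicate 6 had the opposite sign for the raised genes. Without replicate 6, 39 negative and 14 positive genes were called, of which 37 were LPS-raised and 11 LPS-lowered in WT, respectively. Exceptions were Cytip and Arl4c, which were negative and lowered by LPS in WT, and Tgfbi, Hspa1a and Prkar2b, which were positive and raised by it, besides 5 genes whose LPS response in WT was not called.

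The same interaction was measured in the 12 WT libraries, which share none with KO. In WT, 548 of 14747 genes were called (3.72%). Each of the 81 genes called in KO had the same sign in WT, against 66.9% of the 14400 genes tested in both genotypes. The test in WT was passed with the same sign by 63 of them (45 negative and 18 positive), which is 77.8% of the genes called in KO and 11.5% of those called in WT. The median WT value was -0.60 for the 54 genes negative in KO, where their KO median was -0.66, and 0.51 for the 27 positive ones, where it was 0.67. Of the 548 genes called in WT, 535 (97.6%) had the same sign in KO. In WT the interaction was 0.79 for Glul, 0.86 for Kcnk13, 0.66 for Tgfbi, -0.81 for Slco4a1, -1.62 for Dok7, -1.47 for Serpinb2, -1.31 for Kdr, 1.17 for Hspa1a and -0.82 for Slc7a11, each called. Not called in WT were, among others, Osm (-0.77), Arg2 (-0.87), Bco2 (-0.91), Immp1l (0.37), Clybl (0.39), Polr3g (0.73), Gata2 (-0.23) and Fam69a (0.25).

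The difference of the interaction between the genotypes was tested in a fit of all 36 libraries. It was called for 0 of 15720 genes (0%) by edgeR and for 0 by DESeq2, and 260 genes (1.65%) had an unadjusted p under 0.05 (edgeR). That share is smaller than evenly spread p values would give, so over all genes the test tended to give large p values. Why it did so was not tested. Among the 81 genes, Fam69a and Gm11427 had an unadjusted p under 0.05, and the smallest adjusted p was 1. With 6 KO and 3 WT replicates this does not show that the interaction is equal in the 2 genotypes. The spread between replicates was larger in KO, with a biological coefficient of variation of 0.145 against 0.0701 in WT, beside the higher count of calls in WT.

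**Figure D4:**
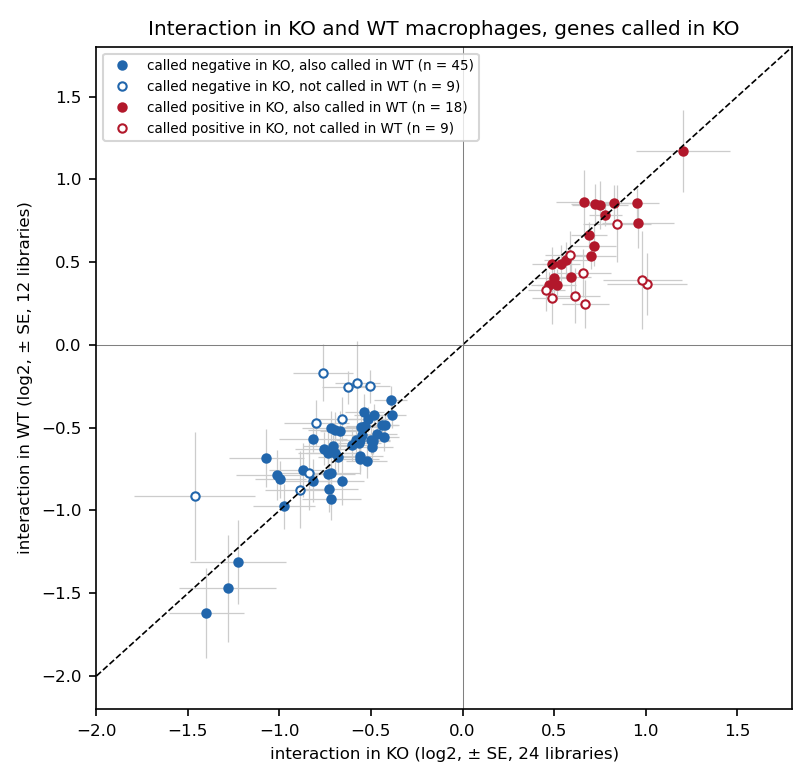
Interaction of the 81 genes called in KO, in KO (x axis, log2, 24 libraries) and in WT (y axis, log2, 12 libraries), with bars of 1 SE in each direction and a dashed line of equal values. Filled points passed the test in WT too (45 negative, 18 positive), and all points lie in the lower left or upper right part, on the same side of 0 in both genotypes.

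The response to LPS and the targets of the clock were described by 14 gene lists. Over all genes tested, CCM lowered 5.54% and raised 6.35% under LPS and lowered 0.363% and raised 0.24% without it. For the interaction, 5.68% were negative and 8.05% positive at an unadjusted p under 0.05, and in WT 2.7% were called negative and 1.02% positive. DESeq2 called 2.23% negative and 1.01% positive, and voom with quality weights 4.81% and 4.41%. Of the interferon-stimulated antiviral genes, 0 of 31 were called for the KO interaction by edgeR, with 1 negative and 8 positive genes at an unadjusted p under 0.05 and 1, Zbp1, called by DESeq2. Voom called 11, of which 10 were positive. The median interaction of this list was 0.27, against 0.04 for all genes tested, and 7 of 31 values were negative. CCM lowered 13 members under LPS and 7 without it (against 5.54% and 0.363% of all genes), with medians of -0.42 and -0.73. Usp18, which removes ISG15 from proteins, had CCM effects of -0.51 and -1.28, both called, and an interaction of 0.77 ± 0.26 (edgeR adjusted p = 0.21). Zbp1, a sensor of Z-form nucleic acids, had -0.22 and -0.90, of which the second was called, and 0.69 ± 0.19 (edgeR adjusted p = 0.109). The levels of both in resting cells were low: Usp18 was at 1.88, 3.63 and 5.33 CPM with vehicle, 1.02, 1.43 and 1.99 CPM with CCM, 414, 480.0 and 604 CPM with LPS and 283, 330.0 and 431 CPM with LPS+CCM. Vehicle and CCM libraries overlapped by little, and LPS multiplied the level of Usp18 in each replicate. In WT the median of the list was -0.21 and 4 members were called negative.

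Of 15 genes of interferon-beta induction and signalling, 0 were called by edgeR, with 3 negative genes at an unadjusted p under 0.05. Irf1 was called by DESeq2 and in the fit of all 36 libraries, and Irf1 and Tyk2 by voom, both negative. Irf1, a transcription factor induced by interferon, had an interaction of -0.49 ± 0.13 (edgeR adjusted p = 0.0901), and CCM lowered it under LPS by 0.64 on the log2 scale. Tyk2, the kinase of the interferon receptor, had -0.55 ± 0.19 (edgeR adjusted p = 0.204). Of 18 chemokines 0 were called by edgeR and 0 by DESeq2, with 0 negative and 2 positive at an unadjusted p under 0.05 (edgeR). Voom called 6, of which 3 were negative and 3 positive, with Cxcl3 and Cxcl1 among them. CCM lowered 8 chemokines under LPS and 2 without it (5.54% and 0.363% of all genes), with medians of -0.52 and -0.44, and the median interaction was 0.01. Cxcl3, which attracts neutrophils, had an interaction of 1.84 ± 0.54 (edgeR adjusted p = 0.138), large but not called, and was at 0.374, 0.906 and 5.68 CPM with vehicle, 0.310, 0.495 and 1.33 CPM with CCM, 542, 584 and 745 CPM with LPS and 547, 729 and 1307 CPM with LPS+CCM. Its resting levels were near the counting limit, and its WT interaction was -0.17. Cxcl1 had 0.79 ± 0.36 (edgeR adjusted p = 0.332).

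Of 21 tested inflammatory cytokines and secreted mediators 1 was called by edgeR, Osm, against 3 by DESeq2, 6 by voom and, without replicate 6, 2 by edgeR (Osm and Il15), and 15 of the 21 values were negative with a median of -0.18. CCM lowered 14 of them under LPS and 1 without it (5.54% and 0.363% of all genes). The list of 27 NF-kB subunits and feedback inhibitors had 1 called member, Irak2, a kinase of Toll-like and interleukin-1 receptor signalling, at 45.3, 62.5 and 69.9 CPM with vehicle, 44.0, 71.0 and 77.3 CPM with CCM, 177, 249 and 276 CPM with LPS and 149, 188 and 222 CPM with LPS+CCM. Its LPS and LPS+CCM libraries overlapped, and its interaction was -0.49 ± 0.09 (SE, edgeR adjusted p = 0.0244). In this list 22 of 27 values were negative (81.5%), against 44.4% of all genes tested and 58.8% of those that LPS raised in WT. The median was -0.18, and 10 negative and 0 positive genes had an unadjusted p under 0.05 (5.68% and 8.05% of all genes). CCM lowered 9 members under LPS and 0 without it (5.54% and 0.363% of all genes). Without replicate 6 the count of negative values was also 22 and the median -0.24, and in WT the median was -0.22 with 5 members called negative. Nfkb1, Nfkb2 and Rel, subunits of NF-kB, had interactions of -0.29, -0.29 and -0.42, and Tnfaip3, its feedback inhibitor A20, had -0.39. These 4 genes are named here after their values were seen. None of these 4 was called by edgeR or DESeq2 and each was called by voom, which called 11 negative and 0 positive members of the list, while DESeq2 called Irak2 and Myd88.

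Of 16 genes of antigen presentation and costimulation 1 was called by edgeR, Tap1, against 3 by DESeq2 and 5 by voom. Without replicate 6 the 1 called member was Cd274. Tap1, which carries peptides to MHC class I molecules, was at 36.6, 40.6 and 56.4 CPM with vehicle, 39.7, 40.7 and 60.4 CPM with CCM, 633, 736 and 919 CPM with LPS and 428, 538 and 742 CPM with LPS+CCM. LPS and LPS+CCM libraries overlapped, with an interaction of -0.50 ± 0.10 (SE, edgeR adjusted p = 0.0322), and without replicate 6 it was -0.52 (edgeR adjusted p = 0.0504). Tap1 overlaps Psmb9, whose interaction was 0.08. Of 11 LPS-inducible enzymes 1 was called, Arg2, also by DESeq2, and 5 by voom. Of 19 immediate early and AP-1 factors 0 were called by edgeR and 0 by DESeq2, with 2 negative and 1 positive at an unadjusted p under 0.05 (edgeR), and voom called 6 negative and 1 positive. Ier3 had -0.45 and Fos 0.32, and Npas4, an activity-induced factor, had -0.54 ± 0.41 (edgeR adjusted p = 0.552). Of 20 phagocytic and scavenger receptors 0 were called by edgeR, with 3 negative and 5 positive at an unadjusted p under 0.05. DESeq2 called 1, Marco, and voom 3 negative and 4 positive, with Marco and Axl among them. Marco, a scavenger receptor that LPS induces, had 1.09 ± 0.31 (edgeR adjusted p = 0.115) and was at 0.997, 2.71 and 6.26 CPM with vehicle, 0.565, 1.44 and 2.43 CPM with CCM, 424, 483 and 799.7 CPM with LPS and 399, 567 and 945 CPM with LPS+CCM. Its WT value was -0.08. Axl, a receptor for apoptotic cells, had -0.50.

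Of 18 tested circadian clock genes 0 were called by edgeR and 0 by DESeq2, with 2 negative and 1 positive at an unadjusted p under 0.05 (edgeR). Voom called 4, Tef, Per1, Nfil3 and Per2, of which 2 were negative. The median was -0.16 and the WT median 0.03. Per1, a repressor of the clock, had -0.38 ± 0.13 (edgeR adjusted p = 0.211) and Tef, a clock output factor, had 0.28 ± 0.11 (edgeR adjusted p = 0.282). Of 18 genes of the cell cycle and DNA replication 2 were called, E2f1 and Mcm3, also by DESeq2, against 8 by voom. In this list 1 of 18 values was negative, that of Mki67, against 44.4% of all genes tested and 31.7% of those that LPS lowered in WT. The median was 0.29 in KO and 0.44 in WT, 10 positive genes and 1 negative had an unadjusted p under 0.05 in KO (8.05% and 5.68% of all genes), and 5 were called positive in WT. In KO, CCM had medians of 0.06 under LPS and -0.20 without it in this list, with 1 member lowered and 3 raised under LPS and 0 called without LPS.

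Of 16 NRF2 targets 1 was called, Slc7a11, also by DESeq2, and 5 by voom. CCM raised 7 members under LPS and 5 without it (6.35% and 0.24% of all genes), with medians of 0.24 and 0.20, and the median interaction was 0.01. Hmox1, heme oxygenase, had CCM effects of 0.58 and 0.53 and Gclm, a subunit of the enzyme that starts glutathione synthesis, had 0.54 and 0.60, each called. Their interactions were 0.05 ± 0.13 and -0.06 ± 0.14 and did not pass the test. Hmox1 and Gclm are named here after their values were seen. Of 28 genes of cholesterol synthesis and LXR targets 0 were called by edgeR and 3 by DESeq2 and in the fit of all 36 libraries (Sqle, Scd2 and Stard4), and 12 by voom, with 1 negative and 8 positive at an unadjusted p under 0.05. The median was 0.20 and the CCM effect had medians of 0.04 under LPS and -0.25 without it. Scd2, a fatty acid desaturase, had an interaction of 0.65 ± 0.15 (edgeR adjusted p = 0.0521), Stard4, a sterol carrier, 0.50 ± 0.12 (edgeR adjusted p = 0.069), and both values were positive in WT as well (0.87 and 0.24). Of 21 genes of the unfolded protein, integrated stress and heat shock responses 1 was called, Hspa1a, also by DESeq2, and 7 by voom. The median was 0.12, and CCM raised 7 members under LPS and 1 without it (6.35% and 0.24% of all genes).

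**Figure D5:**
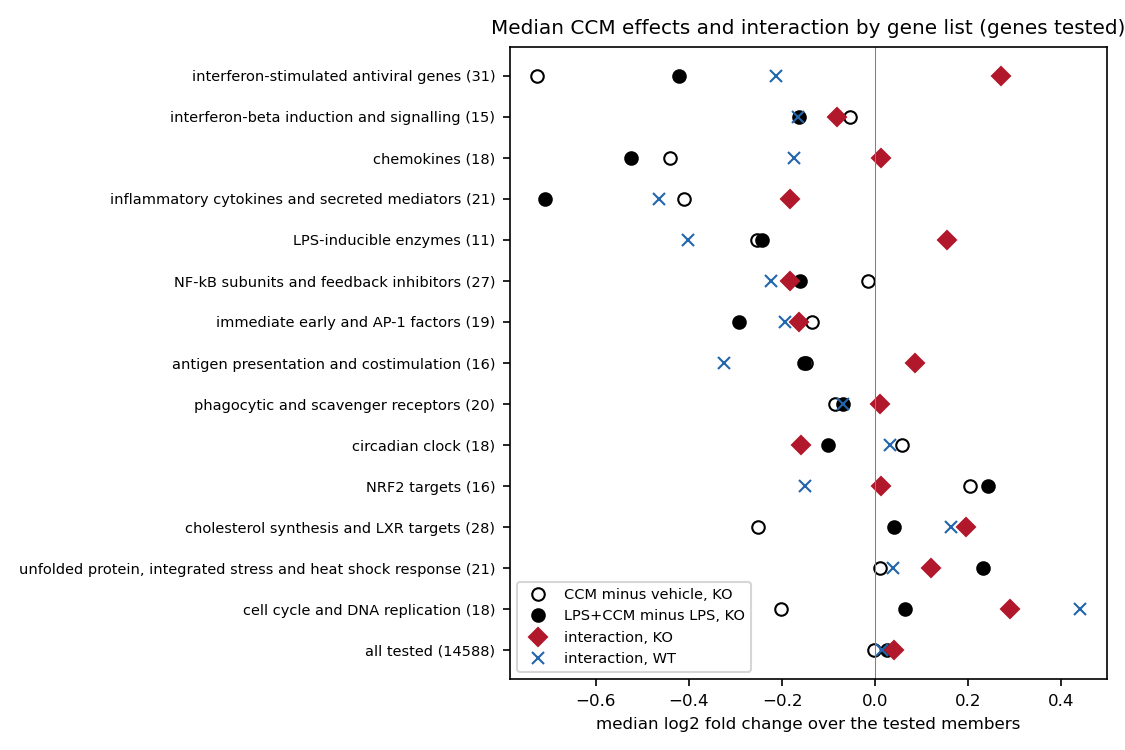
Median log2 change over the tested members of each of 14 gene lists (number in brackets) and of all genes tested, for CCM minus vehicle and LPS+CCM minus LPS in KO and for the interaction in KO and WT. Medians of the interaction in KO run from -0.18 (cytokines, NF-kB) to 0.29 (cell cycle), against 0.04 for all genes; that of the antiviral genes is 0.27 in KO and -0.21 in WT.

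Medians over a list are descriptions and were not tested. In at least 1 of 7 alternatives the medians of chemokines, phagocytic receptors and NRF2 targets, all near 0, changed sign, and with voom those of antigen presentation and of the stress responses did so too. Those of the antiviral, NF-kB, cytokine, clock, cholesterol and cell cycle lists kept theirs under each of the 7 alternatives run. The alternatives reuse the same KO libraries, so a kept sign is not independent support and does not show the spread between replicates.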

How the data were processed

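Poly(A) RNA of BMDMs was sequenced as paired ends. According to the study's methods and processing notes, the authors used fastp for trimming, HISAT2 2.0.5 with mm10 for alignment, and counted read pairs with featureCounts 1.5.0-p3. The deposited table holds raw counts for 54532 genes, not normalized, and 0 of its sample columns were left out here. The strand setting is not given in the sources used here. The authors tested pairs of groups with DESeq2. Of the gene IDs, 54495 are in GENCODE M21, 53585 with identical coordinates, and positions are on GRCm38.

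From the counts, genes were filtered with filterByExpr (minimum count 10), scaled by TMM and tested two-sided with edgeR 4.0.16 (glmQLFit, glmQLFTest) in R 4.3.3, with Benjamini-Hochberg adjustment over all genes tested and calls at 0.05. The 24 KO libraries, the 12 WT libraries and all 36 were fitted separately, each with LPS, CCM and their product. The replicate number was a block (within genotype for the 36), as the definition of the comparison asks. Levels are CPM on TMM-scaled sizes, and per-replicate log2 values use a prior count of 2. Limma 3.58.1 (voom) and DESeq2 1.42.0 were alternatives, beside RLE and total-count scaling, no filter, no block and leaving out each replicate. The fit was also run on simulated data, and the outcome is not given or used as support here.

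The comparison, the 14 gene lists and the rule for naming genes were chosen with earlier results of these data known, and the medians of lists by setting and the counts without replicate 6 were added after seeing the data. The rule names the 15 most negative and 15 most positive called genes whose average log2 CPM was 1 or more and whose sign was shared by 5 or 6 of the 6 replicates, up to 4 called members of each list or, with none called, the 2 with the smallest p, and Arntl and Npas4. Other genes are said to be named after their values were seen, where they are described singly. Hspa1b, Il18 and Psmb9 are given only beside a gene whose reads they may share. The study counts n in mice, with an n per genotype equal to the replicates per group here, but that same-numbered libraries of different groups share a mouse is not stated in the sources used here. Any 2 KO libraries of a group differed by more than counting noise (the lowest chi-square over its degrees of freedom was 4.34 in 60 pairs), so none was counted as a library deposited more than once.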

Additional observations from a re-analysis of the deposited data

Results flagged for a closer look

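The within-replicate interaction of each of the 50 genes named by the rule was searched for 1 replicate far from the other 5 (the gap to the nearest over the whole range above Dixon's critical value for 6 samples), which chance alone gives in about 1 of 20 such groups, and 4 were found. In E2f1, replicate 4 was the lowest at 0.43, with the next at 0.71. In Slc7a11, replicate 6 had -0.0030, with the next at -0.65. In Tshz1, replicate 5 had -1.64, with the next at -0.93. In Bco2, replicate 6 had -3.48, with the next at -1.35. The values of all 4 genes lay on the same side of 0 in 6 of 6 replicates. No difference of the interaction between the genotypes was called.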

How the results depend on the processing

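For the KO interaction, 81 genes were called. The count was 1 with no replicate block (10 with replicate 6 also left out), 326 with DESeq2, 40 with total counts alone, 259 with no filter, 1344 with voom and 258 in the fit of all 36 libraries, and 5 to 65 without 1 replicate. The share of negative calls was 66.7%, and it was 76.8% with RLE factors and 22.5% with total counts alone. The CCM effect under LPS had 1735 calls, against 96 with no replicate block (1117 with replicate 6 also left out), 3457 with voom, 2714 with all 36 libraries and 585 to 1649 without 1 replicate. Its share of negative calls was 46.6%, 63.2% with RLE factors and 32% with total counts alone. The CCM effect without LPS had 88 calls, against 0 with no replicate block (356 at an unadjusted p under 0.05; 20 calls with replicate 6 also left out), 229 with DESeq2, 208 with no filter, 1390 with voom, 185 with all 36 libraries and 16 to 71 without 1 replicate. The WT interaction had 548 calls, 308 with no replicate block, 963 with no filter and 14 to 344 without 1 replicate, the lowest without replicate 2; its share of negative calls was 72.6%, and 28.5% with total counts alone. The LPS response in WT had 9854 calls and 9479 with no replicate block. The cause of these differences was not tested.

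The genotype difference had 0 calls under each of 6 settings. Of the values of named genes under the alternatives, 452 kept direction and side of the threshold, 31 gained the call, 217 lost it and 0 changed sign. Of the 81 genes, 78 were also called by DESeq2, 81 by voom, 80 in the fit of 36 libraries and 30 with total counts alone. 63 were called without at least 1 of the replicates and 4 (Glul, Kcnk13, Tgfbi and Slco4a1) without any 1 of them. The genes called without each replicate in turn all had the same sign in WT, as did 98.8% of those called by DESeq2 and 94.2% by voom. Same-numbered KO libraries of different groups had correlated deviations from their group means (median r = 0.483, range -0.163 to 0.822), but 6 of 36 pairs were at or under 0.1, and 15 of 24 libraries correlated best with their own number, so the numbers do not by themselves show pairing.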
